A study of Arabidopsis thaliana with 4 samples.

Results

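The genes described here are 10 genes of the salicylic acid (SA) pathway of *Arabidopsis thaliana*, chosen by name out of the 37336 genes of the count table: the synthesis genes *ICS1* and *PBS3*, the regulators *SARD1*, *CBP60G* and *NPR1*, the N-hydroxypipecolic acid (NHP) genes *ALD1* and *FMO1*, and the pathogenesis-related (PR) genes *PR1*, *PR2* and *PR5*. PolyA RNA was sequenced from whole seedlings of wild-type Col-*0* and of *s2lb-2*, with 2 libraries per genotype, and the replicates of a genotype came from different seed batches. All seedlings were 6 days old and were grown without sugar on MS agar under long days, and the labels name no pathogen or hormone treatment. The *s2lb-2* line carries a T-DNA insertion in *S2Lb*, which encodes a homolog of the yeast COMPASS subunit Swd2, and it derives from a Nossen line that was repeatedly backcrossed to Col-*0*, so that remaining Nossen sequence cannot be told apart from the mutation. The label of the *s2lb-2* samples for genotype names a tagged SDG2 line instead. The titles were followed, and *S2Lb* (AT5G66240) had 1337 and 1613 normalized counts in wild type but 80.8 and 67.2 in *s2lb-2* (log2 fold change -4.30, adjusted p = 0.00620 by limma). *SDG2* (AT4G15180) had 2010 and 2008 in wild type and 2253 and 2298 in *s2lb-2* (log2 fold change 0.18, adjusted p = 0.318 by limma), and the paralog *S2La* (AT5G14530) had a log2 fold change of -0.048.

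SA is made in attacked leaves mainly from chorismate, through isochorismate synthase in plastids and the amide synthetase PBS3 in the cytosol, and the transcription factors SARD1 and CBP60g turn on this route. NHP, made from lysine by ALD1 and FMO1 among others, acts together with SA in systemic acquired resistance. The receptor NPR1 works with TGA factors to induce the PR genes, whose products are secreted antimicrobial proteins, and *PR1* is the usual marker of this output.

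The sequence directly before the genes was read from TAIR10.1, since the regulators of the pathway are known to bind short motifs there. Motifs were searched on both strands of the 250 bases before the gene start of the RefSeq annotation. TTGAC is the core of the W box of WRKY factors, TGACG the core bound by TGA factors, and GAAATT the core bound by SARD1 and CBP60g. Among 27438 promoters of protein-coding genes of the same length, 44.9% held TTGAC, 18.6% held TGACG and 32.2% held GAAATT. The synthesis gene *ICS1*, the regulator with most matches and the PR genes *PR2* and *PR5* are shown, 5′ to 3′ on the strand of the gene, with every match of the 3 motifs or of its reverse complement in capitals.
ICS1: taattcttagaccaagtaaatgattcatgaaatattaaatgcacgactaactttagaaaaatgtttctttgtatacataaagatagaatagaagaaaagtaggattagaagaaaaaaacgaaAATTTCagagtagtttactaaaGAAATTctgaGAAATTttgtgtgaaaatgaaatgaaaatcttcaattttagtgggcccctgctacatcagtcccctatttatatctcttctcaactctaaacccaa
SARD1: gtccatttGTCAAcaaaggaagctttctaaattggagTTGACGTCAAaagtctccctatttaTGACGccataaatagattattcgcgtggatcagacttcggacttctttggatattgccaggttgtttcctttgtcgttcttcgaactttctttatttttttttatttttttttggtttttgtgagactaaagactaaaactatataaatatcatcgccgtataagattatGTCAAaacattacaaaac
PR2: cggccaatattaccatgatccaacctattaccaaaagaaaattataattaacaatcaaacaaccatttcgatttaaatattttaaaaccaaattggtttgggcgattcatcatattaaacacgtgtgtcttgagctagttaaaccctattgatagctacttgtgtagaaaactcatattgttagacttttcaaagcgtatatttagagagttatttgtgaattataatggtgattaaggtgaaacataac
PR5: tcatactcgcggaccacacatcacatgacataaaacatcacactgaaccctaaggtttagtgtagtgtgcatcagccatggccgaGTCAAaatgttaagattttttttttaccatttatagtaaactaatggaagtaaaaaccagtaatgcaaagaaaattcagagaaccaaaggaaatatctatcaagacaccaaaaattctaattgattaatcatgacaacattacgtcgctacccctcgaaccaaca

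*ICS1* (chr1:28070045-28070294, plus strand) had 3 matches of GAAATT, starting at positions -128, -106 and -96 from the gene start, the first on the opposite strand. *SARD1* (chr1:27749249-27749498, minus strand) had 4 matches of TTGAC and 3 of TGACG, and several of these share letters, since TTGACGTCAA reads as both motifs on both strands. *PR5* (chr1:28177420-28177669, plus strand) had 1 match of TTGAC, on the opposite strand at position -165. No match of the 3 motifs lay in the window of *PR2* (chr3:21189968-21190217, minus strand), nor in those of *NPR1*, *CBP60G* and *PBS3*. The NHP genes *FMO1* and *ALD1* had 4 and 2 matches of GAAATT, and none of the other motifs. The matches of *ALD1* at -90 and -88 share letters, as do those of *FMO1* at -131 and -129, with the motif read on both strands. A match is a string of letters and shows no binding.

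The libraries had from 34325097 to 39114300 reads on genes, recovered from the deposited values, and from 24227 to 24570 genes with a read. The test was limma on log2(normalized count + 1) for genes whose mean normalized count reached 1, and a Benjamini-Hochberg adjusted p under 0.01 over the 23723 tested genes was the threshold. A pseudocount of 1 draws the fold change of weakly read genes closer to none than a smaller pseudocount does. Which of limma and DESeq2 gave the larger fold change varied between genes. The log2 fold change of *FMO1* was 1.73 by limma and 2.61 by DESeq2, while that of *PR2* was 3.49 and 3.25. Of all tested genes, 0.0632% were called higher and 0.059% lower in *s2lb-2* by limma. By DESeq2 on the recovered reads, 1.37% of 22045 genes were called higher and 1.84% lower. All 10 genes of the pathway had a read, and 9 were tested. Of these, limma called 0 and DESeq2 0 in either direction, and edgeR's quasi-likelihood test and limma-voom also called 0. At an unadjusted p under 0.05 by limma there were 2, *PR2* and *PBS3*, both higher in *s2lb-2*, next to 17.4% of all tested genes. In 5 of the 9 both *s2lb-2* libraries lay above both wild-type libraries (*PR2*, *ICS1*, *SARD1*, *FMO1* and *PBS3*), and in 1 they lay below (*PR5*), compared to 24.8% and 24.7% of all tested genes. The median log2 fold change of the 9 was 0.91, with 8 above 0, and that of all tested genes was -0.0022. The weakly read genes raised this median, which was 0.32 over the members with a mean of at least 10. Without a library in turn, the median of the 9 ranged from 0.57 to 1.202. With 2 libraries per genotype, an exact permutation test of a single gene cannot go below p = 0.333.

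**Figure D1:**
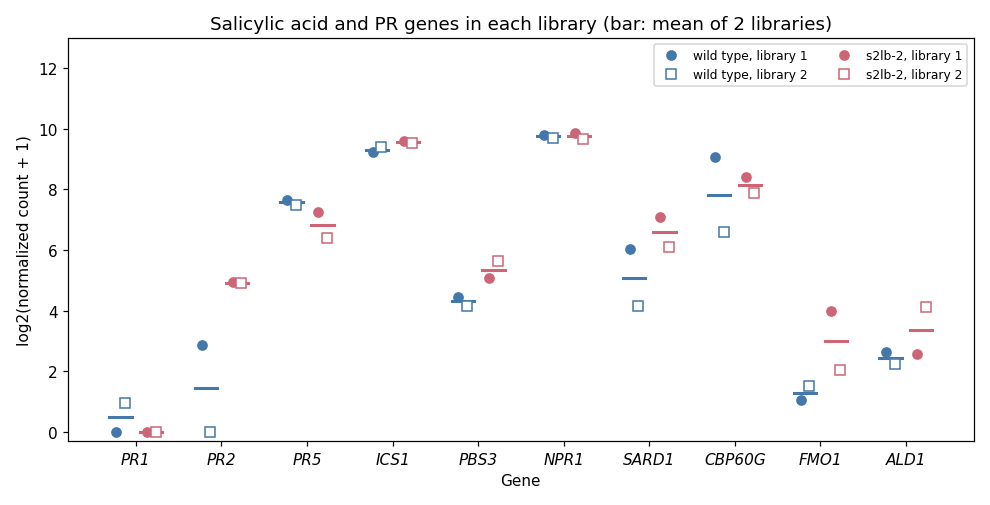
Normalized counts of the 10 genes, as log2(normalized count + 1), in each of the 4 libraries; circles are library 1 and squares library 2 of each genotype, and bars are the mean of 2 libraries on this scale. *PR1* is near 0 throughout, *PR2* is at 29.5 and 29.0 normalized counts in *s2lb-2*, and the libraries of *CBP60G* and *SARD1* lie far apart within wild type.

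Per length of transcript, the levels of the 10 genes spanned from no read to above the middle of the transcriptome, as the median tested gene had 8.28 TPM in wild type (TPM divides the reads of a gene by its exon length and scales each library to the same sum). *NPR1* and *ICS1* were the highest, with means of 14.2 and 12.6 TPM in wild type and 14.7 and 15.2 TPM in *s2lb-2*. Their order changed between the genotypes, and in *s2lb-2* their libraries overlapped. *PR5* followed with 7.51 and 4.69 TPM and *CBP60G* with 5.86 and 5.43 TPM, and these neighbours overlapped in both genotypes and changed order between them. *SARD1* (0.724 and 1.84 TPM) and *PBS3* (0.311 and 0.689 TPM) came next, and their wild-type libraries overlapped. *ALD1*, *PR2*, *FMO1* and *PR1* had means from 0.0225 to 0.123 TPM in wild type, at which few reads separate them. In *s2lb-2*, *PR2* was at 0.874 TPM, above the mean of *PBS3*. Their libraries overlapped only narrowly there, with 0.849 and 0.898 TPM for *PR2* and 0.527 and 0.850 TPM for *PBS3*.

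For the synthesis of SA, *ICS1* (AT1G74710, chr1:28070295-28074177, plus strand) had 604 and 669 normalized counts in wild type and 767 and 731 in *s2lb-2*. The 2 genotypes did not overlap, but the difference was small (log2 fold change 0.24, 95% interval -0.032 to 0.51) and missed the threshold (adjusted p = 0.340 by limma). *PBS3* (AT5G13320, chr5:4267456-4271064, plus strand), whose enzyme joins isochorismate to glutamate, had 21.0 and 16.7 normalized counts in wild type and 32.5 and 48.6 in *s2lb-2*. Both mutant libraries were above both wild-type libraries, with a log2 fold change of 1.05 (0.17 to 1.92) that missed the threshold as well (adjusted p = 0.223 by limma).

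Among the regulators, *NPR1* (AT1G64280, chr1:23852748-23855658, minus strand) had 885 and 832 normalized counts in wild type and 932 and 818 in *s2lb-2*, so that the wild-type values lay between those of the mutant. Its log2 fold change was 0.025, with an interval from -0.25 to 0.30 (adjusted p = 0.934 by limma). It ranged from -0.069 to 0.12 with a library left out. *SARD1* (AT1G73805, chr1:27744790-27749248, minus strand) had 64.0 and 16.7 normalized counts in wild type and 135 and 67.2 in *s2lb-2*. The lower mutant library was barely above the higher wild-type library, and the log2 fold change of 1.50 had an interval from -0.19 to 3.20 (adjusted p = 0.336 by limma). *CBP60G* (AT5G26920, chr5:9475679-9478777, plus strand), which encodes the close relative of SARD1, had 534 and 94.7 normalized counts in wild type and 336 and 236 in *s2lb-2*. Here the wild-type libraries differed 5.64-fold from each other and enclosed both mutant libraries. Its log2 fold change of 0.32 (-1.61 to 2.25, adjusted p = 0.871 by limma) had no stable direction, as it was -0.92 without wild-type replicate 2 and 1.56 without wild-type replicate 1, and -0.14 by DESeq2. *NPR1* overlaps a pseudogene and a long noncoding RNA, and *SARD1* overlaps a gene on the other strand, so that reads of these may be shared. The same limit holds for *ICS2*, *UGT74F1*, *UGT74F2*, *TGA4*, *CBP60A* and *PR3*, named below, and for the organ markers *LHCB1.3*, *EXPA7* and *PYK10*.

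The NHP genes were read only a few times. *ALD1* (AT2G13810, chr2:5768417-5772266, plus strand), the aminotransferase that acts on lysine, had 5 and 4 reads in wild type and 5 and 16 in *s2lb-2*. Only the second mutant library was high, and the genotypes overlapped (log2 fold change 0.91, -0.74 to 2.56, adjusted p = 0.538 by limma). *FMO1* (AT1G19250, chr1:6650476-6653195, minus strand), the monooxygenase that hydroxylates pipecolic acid, had 1 and 2 reads in wild type and 15 and 3 in *s2lb-2*. Here the first mutant library was high, and the ratio of the summed reads, scaled to depth, was 6.14 with a counting interval from 1.79 to 32.5. The mutant libraries differed 4.76-fold from each other, and the log2 fold change of 1.73 missed the threshold (-0.26 to 3.73, adjusted p = 0.345 by limma). The 2 genes were thus not high in the same mutant library.

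The PR genes differed from each other. *PR1* (AT2G14610, chr2:6241640-6242541, minus strand) was covered by 1 read in all 4 libraries, in wild-type replicate 2, and was not tested. In a library without a read, 3 reads are the upper limit that a count of 0 allows. This was from 0.0779 to 0.0874 CPM (reads of a gene in a library scaled to the same total) in the libraries at 0. A difference in *PR1* below this limit could not be detected at this depth. *PR2* (AT3G57260, chr3:21188397-21189967, minus strand), a beta-1,3-glucanase, had 6.30 and 0 normalized counts in wild type and 29.5 and 29.0 in *s2lb-2*. Both mutant libraries were clearly above both wild-type libraries, and the mutant libraries were nearly equal. The summed reads, 58 in *s2lb-2* and 6 in wild type, gave a ratio of 9.90 with a counting interval from 4.28 to 28.1. The log2 fold change of 3.49 (1.09 to 5.88) was the largest of the 9, and it missed the threshold (adjusted p = 0.163 by limma and 0.0816 by DESeq2). *BG3*, the neighbouring glucanase gene of the same family, had between 0 and 5.91 normalized counts per library. *PR5* (AT1G75040, chr1:28177670-28179022, plus strand), a thaumatin-like protein, had 202 and 179 normalized counts in wild type and 153 and 82.7 in *s2lb-2*. It was the only one of the 9 with lower values in both mutant libraries (log2 fold change -0.75, -1.54 to 0.031, adjusted p = 0.305 by limma).

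**Figure D2:**
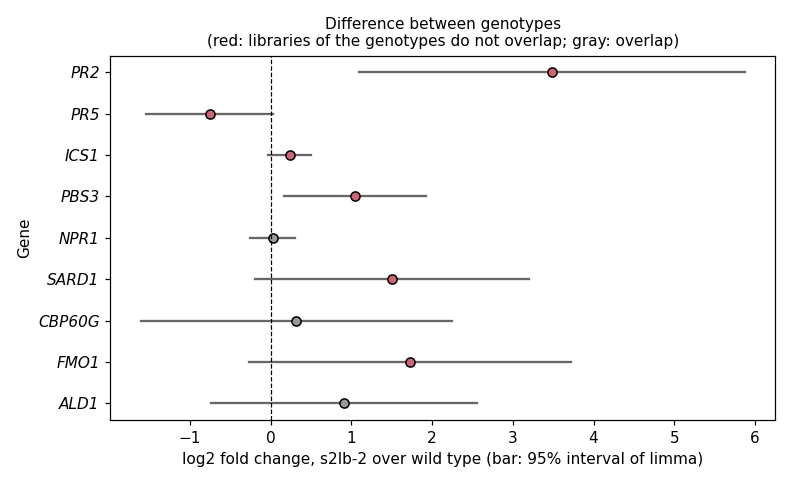
Log2 fold change of the 9 tested genes, *s2lb-2* over wild type, with the 95% interval of limma; red points are genes whose libraries do not overlap between the genotypes and gray points those that do. The intervals of *PR2* and *PBS3* do not reach 0 before adjustment, and those of *ICS1* and *NPR1* are the narrowest.

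The libraries of a genotype differed more for some of these genes than for most genes. Over the 17913 genes whose mean normalized count reached 50, the median difference between the libraries of a genotype was 0.149 on the log2 scale in wild type and 0.133 in *s2lb-2*. For the 5 members above this level (*ICS1*, *NPR1*, *PR5*, *SARD1* and *CBP60G*) it was 0.168 and 0.509. In wild type, *SARD1* and *CBP60G* differed by more than 1 on log2(normalized count + 1), 40.0% of the 5 against 2.01% of all genes. In *s2lb-2* 0 of the 5 did, against 1.79% of all genes. *SARD1* was only just short of it there, at 0.995, and its normalized counts differed 2.01-fold. Replicate 1 was the higher of both replicates in both genotypes for 4 of the 5, the exception being *ICS1*, compared to 5494 of the 17913 genes. *WRKY70*, an SA-induced transcription factor, had the same pattern with 541 and 133 normalized counts in wild type and 247 and 93.1 in *s2lb-2*. It was the only 1 of the 41 other pathway genes at this level to differ by more than 1 in wild type (2.44%). Replicate 1 was the higher in both genotypes for 12 of the 41, and replicate 2 for 15. Among the organ markers, replicate 1 was also the higher in both genotypes for the seed storage gene *CRA1* (301 and 16.7 in wild type, 112 and 19.7 in *s2lb-2*). The same held for *SESA4* (seed storage), *LHCB1.3* and *LHCB2.1* (leaf), *PYK10* (root), and *AP3* and *AG* (flower). All of these had a smaller difference than *CRA1* in wild type. In *s2lb-2* the difference of *SESA4* was larger than that of *CRA1* (2.83 against 2.46 on the log2 scale). The part of *CRA1* in the differences of the members was not tested.

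**Figure D3:**
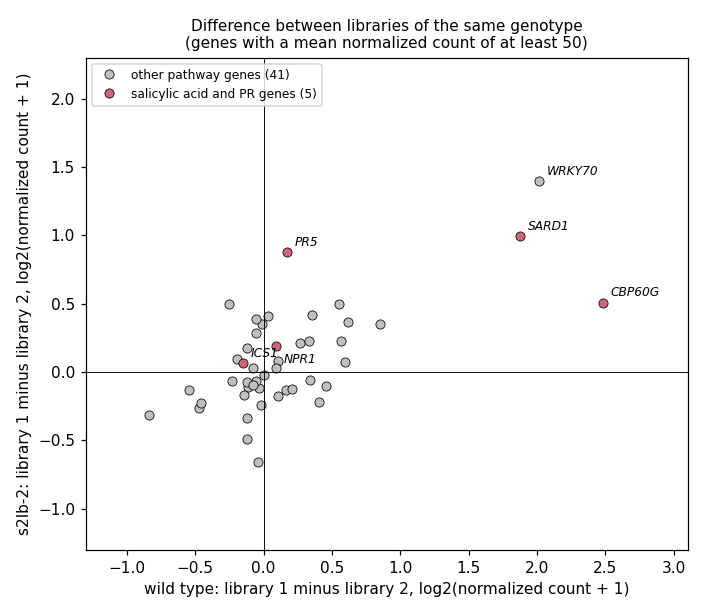
Difference between the libraries of a genotype, replicate 1 minus replicate 2 on log2(normalized count + 1), in wild type (x axis) and *s2lb-2* (y axis) for the 5 members (red) and 41 other pathway genes (gray) whose mean normalized count reached 50. *CBP60G*, *SARD1* and *WRKY70* lie far to the right in wild type, while most genes are near 0.

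The rest of the pathway was described by 7 lists of 58 genes in all. A read was found for 57 of them, and 54 were tested. Limma called 0 of these, with 9 at an unadjusted p under 0.05, and DESeq2 called 4 of 48 higher and 0 lower in *s2lb-2*. Both *s2lb-2* libraries were above wild type for 15 genes and below for 11, and the median log2 fold change was 0.098. As shares, 27.8% of the 54 were higher and 20.4% lower without overlap, next to 24.8% and 24.7% of all tested genes, and 16.7% had an unadjusted p under 0.05, next to 17.4%. These shares lay near those of all genes. The genes called higher by DESeq2 were 8.33% of the 48, next to 1.37% of all. They were *CBP60F*, *EDS1*, *PR3* and *PR4*, of which *PR3* and *PR4* belong to an output of jasmonate and ethylene. The lists were chosen with earlier results of these data known, so that this share is a description only.

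Of 7 genes of SA synthesis and transport, 3 had a log2 fold change above 0 and 4 below, with a median of -0.24 that was 0.011 without wild-type replicate 1. *PAL1*, a phenylalanine ammonia-lyase of the alternative route to SA, had 11546 and 7818 normalized counts in wild type and 15588 and 13331 in *s2lb-2* (log2 fold change 0.60, adjusted p = 0.212 by limma), and it passed the threshold only with the replicate number as a block. *ICS2*, the minor isochorismate synthase, lay on the other side with 998 and 1004 in wild type and 883 and 692 in *s2lb-2* (log2 fold change -0.36, adjusted p = 0.274 by limma). *EPS1*, which acts after PBS3, lies near *S2Lb* on chromosome 5 and had a log2 fold change of 0.068. Of 9 genes that modify SA or complete NHP, 8 were tested and 7 were above 0, with a median of 0.34. The glucosyltransferase genes *UGT76B1* (log2 fold change 0.50, adjusted p = 0.316 by limma) and *UGT74F1* (0.45, adjusted p = 0.374 by limma) were the largest of those with a mean of at least 10, and *UGT74F1* has a close relative nearby, *UGT74F2*, with which it may share reads.

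The 14 genes of the NPR family, TGA factors and NIMIN proteins were spread around 0 (median -0.052, 7 above and 7 below). *NPR2* had the largest positive log2 fold change (0.39, adjusted p = 0.530 by limma) and *TGA4* the largest negative one (-0.38, adjusted p = 0.141 by limma), with 866 and 901 normalized counts in wild type and 663 and 695 in *s2lb-2*. The 9 regulators of the CBP60 and CAMTA families had a median of -0.033. *CBP60F* stood apart among them, with 400 and 551 normalized counts in wild type and 892 and 1041 in *s2lb-2*. Its log2 fold change of 1.04 passed the threshold by DESeq2 (adjusted p = 0.000168) but not by limma (adjusted p = 0.0726). *CBP60A*, a negative regulator of immunity, was at a log2 fold change of 0.29, which missed the threshold (adjusted p = 0.496 by limma). The 3 genes of the EDS1 node, lipase-like proteins that act upstream of SA, all lay above 0 (median 0.45). *EDS1* had 625 and 660 normalized counts in wild type and 932 and 993 in *s2lb-2*, and its log2 fold change of 0.58 passed by DESeq2 (adjusted p = 0.00650) but not by limma (adjusted p = 0.0689), nor by DESeq2 with the replicate number as a block. *SAG101* was at 0.45 on the log2 scale, short of the threshold (adjusted p = 0.211 by limma).

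Of 11 SA-induced genes, 9 were tested, 5 above and 4 below 0, with a median of 0.026 that turned to -0.55 without wild-type replicate 2 and was 0.92 without wild-type replicate 1. *WAK1*, a wall-associated kinase, had 42.0 and 41.8 normalized counts in wild type and 86.7 and 87.9 in *s2lb-2* (log2 fold change 1.04, adjusted p = 0.108 by limma). The log2 fold change of *WRKY70* was -0.82, with an adjusted p = 0.629 by limma, and it was 0.19 without wild-type replicate 1. Of 5 other PR-type genes, 4 were tested, with a median of 0.80, from 0.29 to 1.15 without a library in turn. *PR3*, a basic chitinase that is known as a marker of jasmonate and ethylene rather than of SA, had 178 and 130 normalized counts in wild type and 447 and 481 in *s2lb-2*. Its log2 fold change was 1.60 (1.12 to 2.08, adjusted p = 0.0316 by limma), and by DESeq2 it was called higher in *s2lb-2* (adjusted p = 2.58e-08). *PR4*, a hevein-like protein of the same output, had 968 and 1053 in wild type and 1691 and 1493 in *s2lb-2*. Its log2 fold change of 0.65 also passed by DESeq2 (adjusted p = 0.000866) but not by limma (adjusted p = 0.0579). The defensin gene *PDF1.2A* of that output had a mean under 1 and was not tested.

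**Figure D4:**
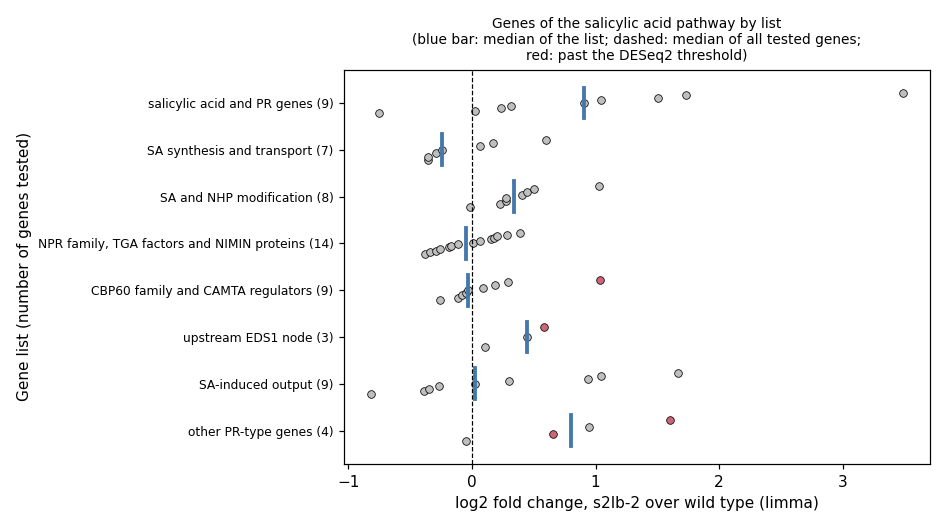
Log2 fold changes (limma, *s2lb-2* over wild type) of the tested genes of each list, with the number tested in brackets; blue bars are the medians of the lists, the dashed line is the median of all tested genes, and red points passed the DESeq2 threshold. The red points are *CBP60F*, *EDS1*, *PR3* and *PR4*, all to the right, and none is among the 9 members.

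The seedlings held the markers of their organs. The cotyledon and leaf gene *RBCS1A* had between 741012 and 850196 normalized counts per library, and the 3 leaf markers had log2 fold changes from -0.38 to -0.13. The root genes *EXPA7* and *COBL9* had log2 fold changes of 0.50 and 0.28 and *PYK10* of -0.42, and the flower genes *AP3*, *PI* and *AG* had at most 17.6 normalized counts. None of these was called by limma or DESeq2. The part of the share of leaf and root cells in the values of the SA genes was not tested, and in whole seedlings fewer cells of a type and less RNA per cell cannot be told apart.

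The genes outside the pathway whose values over the 4 libraries followed those of *ICS1* most closely were *Tic20-V* (AT5G55710), *ICU2* (AT5G67100) and AT5G41960. Their distances from *ICS1* on centred log2(normalized count + 1) were 0.00598, 0.0134 and 0.0218. With 4 libraries and 23723 tested genes, such likeness is a description only. For *PR1*, with 1 read, no such genes are given.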

How the data were processed

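The authors removed adapters with trimmomatic v0.36, mapped 50-bp single reads on TAIR10 with STAR 2.5.4b, counted reads per gene of Araport11 and normalized them with the size factors of DESeq2. The deposited signal is the normalized count of 37336 genes. The strand setting of the counting is not given in the sources used here. A second deposited table with the comparison of the authors (fold changes and p-values) was not used, and there were 0 other columns of values per sample. Whole reads were recovered from 100% of the values (tolerance 1e-06) with a size factor of 0.953 and 1.08 in the wild-type and 1.02 and 0.967 in the *s2lb-2* libraries.

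Genotypes were compared with limma 3.58.1 (lmFit, eBayes with a trend) in R 4.3.3, with genotype as the only term and 2 libraries per genotype, which limits the precision. The p-values set a difference against the spread between these libraries, which eBayes draws for each gene towards the trend over all tested genes. Alternatives on the recovered reads were DESeq2 1.42.0, limma-voom and edgeR 4.0.16. Other scalings, pseudocounts of 0.1 and 0.5, filters of a mean of at least 10 and above 0, a threshold of 0.05, a replicate term and fits without each library were also tried. Intervals of read ratios and floors of 3 reads cover counting error only.

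All 10 members were named, and from each other list every gene past the limma threshold and the 2 genes with the largest absolute log2 fold change at a mean of at least 10, together with *S2Lb*, *S2La* and *SDG2*, and the 3 genes closest to *ICS1* by Euclidean distance among tested genes with a mean of at least 10. *BG3*, *EPS1*, *UGT74F2* and *PDF1.2A* are named outside this rule and after their values were seen. The organ markers are also named outside this rule, and of these only *CRA1* is given with the value of every library. The members and lists were chosen with earlier results of these data known. Positions, transcript lengths and promoters are from RefSeq TAIR10.1. The promoter of *PR1* is not reported here. The tests were tested on simulated data.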

Additional observations from a re-analysis of the deposited data

How the results depend on the processing

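None of the 9 tested members was called at an adjusted p under 0.01 by any alternative fit to all libraries. At 0.05 none was called in the limma fit with genotype as the only term. With the replicate number as a block, *SARD1* and *PR2* were under 0.05 by limma. The log2 fold changes of *PR2*, *PR5*, *ICS1*, *SARD1*, *FMO1*, *ALD1* and *PBS3* kept their sign under all alternatives that could test them, but their size depended on single libraries. With a library left out in turn, it ranged from 2.05 to 4.92 for *PR2*, from -1.19 to -0.31 for *PR5*, from 0.16 to 0.31 for *ICS1*, from 0.57 to 2.44 for *SARD1*, from 0.76 to 2.70 for *FMO1*, from 0.13 to 1.69 for *ALD1* and from 0.76 to 1.33 for *PBS3*. That of *CBP60G* was -0.14 by DESeq2 and -0.13 by edgeR's quasi-likelihood test, and from -0.92 to 1.56 without a library in turn. Without a library, that of *NPR1* ranged from -0.069 to 0.12 and that of *WRKY70* from -1.83 to 0.19. Over all genes, limma called 29, DESeq2 706, limma on counts scaled by library totals 66, limma with a pseudocount of 0.1 only 1 and limma at a threshold of 0.05 379. Without a library in turn it called from 0 to 0, in fits that take the spread of the single library left in a genotype from the other genotype.

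Of the other pathway genes, limma called 0, DESeq2 4 and limma at 0.05 only 1 (*PR3*). The labels share replicate numbers between the genotypes, but neither they nor the methods tie a number to a common batch. Deviations of same-numbered libraries had a correlation of 0.178 over the tested genes and 0.407 over those with a mean of at least 50. With the replicate number as a block, limma called 663 genes and DESeq2 674, in each case with 4 of the other pathway genes (*PAL1*, *CBP60F*, *PR3* and *PR4*) and 0 members. *PAL1* was called with the block alone (adjusted p = 0.00977 by limma and 0.00042 by DESeq2), and *EDS1*, called by DESeq2 without the block, was not (adjusted p = 0.0126 by limma and 0.0479 by DESeq2). Among the members, *SARD1* (adjusted p = 0.0269 by limma and 0.107 by DESeq2) and *PR2* (adjusted p = 0.0286 by limma and 0.0689 by DESeq2) were closest. By limma with the block both were thus under 0.05, a threshold applied above only to the limma fit without the block. Few reads were found for *PR1*, *FMO1*, *ALD1* and, in wild type, *PR2*.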
